A study of Mus musculus with 18 samples.

Results

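The glycosaminoglycan synthesis and sulfation enzymes are 40 genes whose products build and sulfate the sugar chains carried by proteoglycans. The members were found by exact match of their gene symbol among the protein-coding transcripts of the table, with the transcripts of a symbol summed. All 40 were present among 22305 protein-coding gene names. The match itself used no measured value, but the list was chosen with earlier results of these data known. The set holds 1 precursor enzyme, 6 enzymes of the linker, 6 of the chondroitin chain, 10 that modify chondroitin and dermatan sulfate, 5 of the heparan chain, 8 that modify heparan sulfate, 2 sulfatases that edit heparan sulfate outside the cell, and 2 hyaluronan synthases.

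The cells were mouse oligodendrocyte progenitors (OPCs), dividing precursors of the myelin-forming oligodendrocytes, grown as clonal lines from primary neural stem cells. RNA was sequenced at 3 stages from 3 control clones (named D7, D3, E8) and from 3 clones null for Thap1 (named 3F, D6, 7F), which gave 18 libraries and 6 groups of 3. The first stage was the OPC at day 0 in growth medium with PDGF-AA. The others were day 2 (DIV2) and day 4 (DIV4) in differentiation medium with the thyroid hormone T3. THAP1 is a zinc-finger transcription factor. The labels do not state how the null clones were made, and each clone is 1 line, so the replicate is the clone. The tests by stage use a spread within groups, pooled over all 6 groups. They treat the libraries of 1 clone at different stages as independent. Only the comparison of clone means counts each clone once.

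Glycosaminoglycans are long chains of repeated disaccharides that alternate an amino sugar with a uronic acid or galactose. Chondroitin and heparan sulfate share a short linker that starts with xylose on a serine of the core protein, and the first enzyme to extend the linker commits the chain to one kind or the other. Sulfotransferases and epimerases then give each chain a sulfation pattern, which sets the growth factors it binds. Hyaluronan is made at the cell membrane, has no core protein and is not sulfated. In the central nervous system, chondroitin sulfate and hyaluronan are known to accumulate around lesions and to limit the differentiation of OPCs, and heparan sulfate is a co-receptor for fibroblast growth factors.

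Levels are given as rescaled TPM, the deposited TPM (a length-corrected share of a library's transcripts) divided by a factor that brings protein-coding genes to a common median. The factor ran from 0.126 to 0.322 in control OPCs, from 0.722 to 1.35 in null OPCs and from 0.931 to 2.03 in the other 12 libraries. Protein-coding transcripts held 5.05% to 9.0% of the TPM in control OPCs, 19.1% to 28.4% in null OPCs and 20.8% to 38.8% later. A value from a control OPC library therefore depends strongly on the factor. Thap1 ranged from 3.34 to 4.41 rescaled TPM in control OPCs and from 0.486 to 0.778 in null OPCs, and its range did not overlap between genotypes at DIV2 or DIV4 either. Sequencing depth is unknown, because TPM keeps no read number. In control D3 at the OPC stage, 6 cell-cycle markers summed to 26.8, against 293 and 413 in the other control OPCs and 363 to 399 in the null OPCs. In control D7 at DIV4, 6 oligodendrocyte markers summed to 5463 and 6 astrocyte markers to 12.9. The other 5 DIV4 libraries had 874 to 1234 and 177 to 412. Sums over 6 fibroblast markers stayed at or below 1.04 and over 6 microglia markers at or below 4.59 in every library. Sums over 6 neuron markers were 85.7 to 135 in control and 76.5 to 84.5 in null OPCs. They were 104 to 119 and 65.7 to 92.6 at DIV2, and 81.7 to 123 and 69.5 to 96.8 at DIV4, where the groups overlapped. Sums over 6 OPC markers were 616 to 809 in control and 421 to 535 in null OPCs, 224 to 406 and 159 to 207 at DIV2, and 316 to 413 and 173 to 213 at DIV4, lower in null without overlap each time.

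A member was tested where its mean over the 18 libraries reached 1 rescaled TPM, which 32 of the 40 did. Chst7, Chst13, Chst14, Chst15, Csgalnact1, Extl1, Ndst3 and Has3 did not, with means from 0.00433 for Chst13 to 0.539 for Chst14. Chst13 was listed at 0 in 17 libraries. Among these low members Extl1, a glycosyltransferase of the exostosin family, reached 0.785, 1.73 and 0.955 in the null clones at DIV4, and 0.0194, 0.765 and 0.353 in the control clones. Has3 reached 3.98 in control E8 at the OPC stage and stayed at or below 0.461 elsewhere. On the deposited scale that Has3 value was 0.502 TPM, within the range of the other libraries. Of the tested members, Chst12 (mean 1.17) and Sulf1 (mean 1.09) passed only through 1 group each, the control OPCs and the control DIV4 libraries. A change is the difference in log2(rescaled TPM + 1) fitted with limma over all 18 libraries, and a member was called at an adjusted p under 0.05 over all 10409 genes tested.

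**Figure D1:**
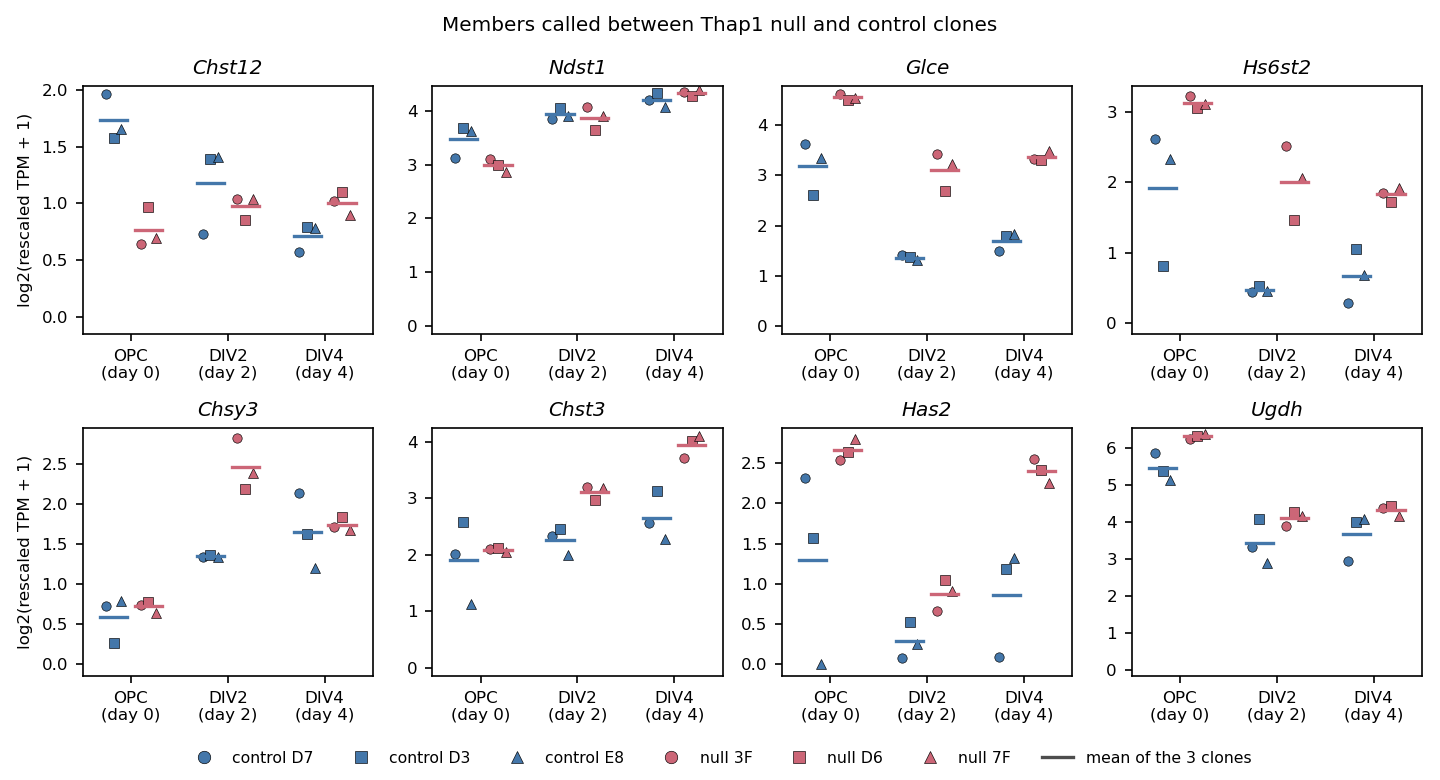
Rescaled TPM on the log2(value + 1) scale of the members called between genotypes, by stage, with 1 point for each clone and the mean of each group. Glce is higher in every null clone than in every control clone at each stage, from 5.46 to 23.3 against 1.48 to 11.4 rescaled TPM over all stages.

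The clearest genotype difference was in Glce, the C5-epimerase that turns glucuronic acid of the heparan chain into iduronic acid. Glce lies on the minus strand of chromosome 9, from 62057248 to 62122655 (GRCm38). At the OPC stage it measured 11.4, 5.13 and 9.09 rescaled TPM in control D7, D3 and E8 and 23.3, 21.4 and 22.3 in null 3F, D6 and 7F. At DIV2 the control clones measured 1.65, 1.59 and 1.48 and the null clones 9.77, 5.46 and 8.31. At DIV4 the control clones measured 1.81, 2.45 and 2.55 and the null clones 9.02, 8.85 and 10.1. No control library reached the lowest null library of its stage. Glce was higher in null on the log2 scale by 1.35 in the OPCs (SE 0.22, adjusted p = 0.00172). The difference was 1.75 after 2 days (SE 0.22, adjusted p = 0.000258) and 1.66 after 4 (SE 0.22, adjusted p = 0.00046). Over clone means it was 1.59 higher (SE 0.12, adjusted p = 0.00203). The calls at DIV2, at DIV4 and over clone means held under each alternative run. In the OPCs the call was lost in the fit on those 6 libraries alone (adjusted p = 0.0843). Bulk RNA cannot tell fewer expressing cells from less RNA per cell, here and for every other member.

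The bases just upstream of 4 members are shown because their levels carry the comparisons that follow: Glce, Ugdh and Chst3 were called higher in null, and Hs6st1 was among the largest rises from OPC to DIV2 in control. Each run is the part of the RefSeq promoter window (GRCm38.p6) that lies upstream of the annotated GENCODE gene, read 5′ to 3′ along the gene's strand, with CpG dinucleotides in capitals. The Glce run is chr9:62122656-62122859 on the minus strand, the Ugdh run chr5:65435950-65436092 on the minus strand, the Chst3 run chr10:60219261-60219510 on the minus strand and the Hs6st1 run chr1:36068150-36068399 on the plus strand.
Glce: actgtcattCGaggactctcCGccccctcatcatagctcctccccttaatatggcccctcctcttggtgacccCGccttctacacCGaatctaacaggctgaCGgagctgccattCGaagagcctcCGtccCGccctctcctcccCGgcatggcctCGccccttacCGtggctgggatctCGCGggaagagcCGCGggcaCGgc
Ugdh: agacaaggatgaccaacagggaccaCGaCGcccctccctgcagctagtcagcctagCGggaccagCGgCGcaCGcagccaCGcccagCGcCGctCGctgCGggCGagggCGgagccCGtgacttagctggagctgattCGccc
Chst3: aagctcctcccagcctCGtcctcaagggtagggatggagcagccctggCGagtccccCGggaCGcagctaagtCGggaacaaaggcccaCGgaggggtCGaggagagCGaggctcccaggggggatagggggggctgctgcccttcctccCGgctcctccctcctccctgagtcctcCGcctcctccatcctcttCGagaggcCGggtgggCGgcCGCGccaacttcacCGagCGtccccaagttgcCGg
Hs6st1: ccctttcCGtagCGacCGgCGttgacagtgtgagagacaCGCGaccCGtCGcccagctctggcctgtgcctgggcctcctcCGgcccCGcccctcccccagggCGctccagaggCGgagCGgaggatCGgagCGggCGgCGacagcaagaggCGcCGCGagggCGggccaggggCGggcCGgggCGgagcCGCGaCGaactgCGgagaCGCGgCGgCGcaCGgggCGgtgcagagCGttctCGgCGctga

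These 4 upstream runs, of 204, 143, 250 and 250 bases, hold 16, 15, 18 and 37 CpG. Their GC content is 64.2%, 69.9%, 69.6% and 76.4%. The median over 250 upstream bases of all promoters is 6 CpG and 52.4% GC, a longer stretch than the Glce and Ugdh runs. Promoter windows, from 250 bases before to 50 after the start, were found for 31 of the 40 members, 38 windows in all. The letters TNNGGGCA, a motif described for THAP1, occur on either strand in 6 of these 38, in Chpf, Chst13, Csgalnact2, Ext2, Hs3st1 and Sulf2. They occur in 13.9% of all 32851 promoters. The YY1 letters AANATGGCG occur in 0 of the 38 and in 2.38% of all. None of the 4 printed runs holds either motif, and these searches describe only the letters in the windows.

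In the OPCs 4 members were called between genotypes, 12.5% of those tested, against 11.9% of all genes, so the share was near the background. Glce and Hs6st2 were higher in null, where 5.91% of all genes were, and Chst12 and Ndst1 were lower, where 5.95% were. At DIV2 there were 3 calls, 9.38% of the members against 3.19% of all genes: Chsy3, Glce and Hs6st2, all higher in null, a direction in which 1.93% of all genes were called. At DIV4 there were again 3, Chst3, Glce and Has2, all higher in null, against 5.5% of all genes called and 3.15% called higher. Over clone means there were 4, 12.5% against 3.43% of all genes: Glce, Hs6st2, Ugdh and Has2, all higher in null, a direction with 1.94% of all genes. The groups did not overlap for 10, 11 and 13 of the 32 members at OPC, DIV2 and DIV4, against 25.7%, 33.2% and 28.4% of all genes. The genotype comparisons at the 3 stages use different libraries of the same clones.

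**Figure D2:**
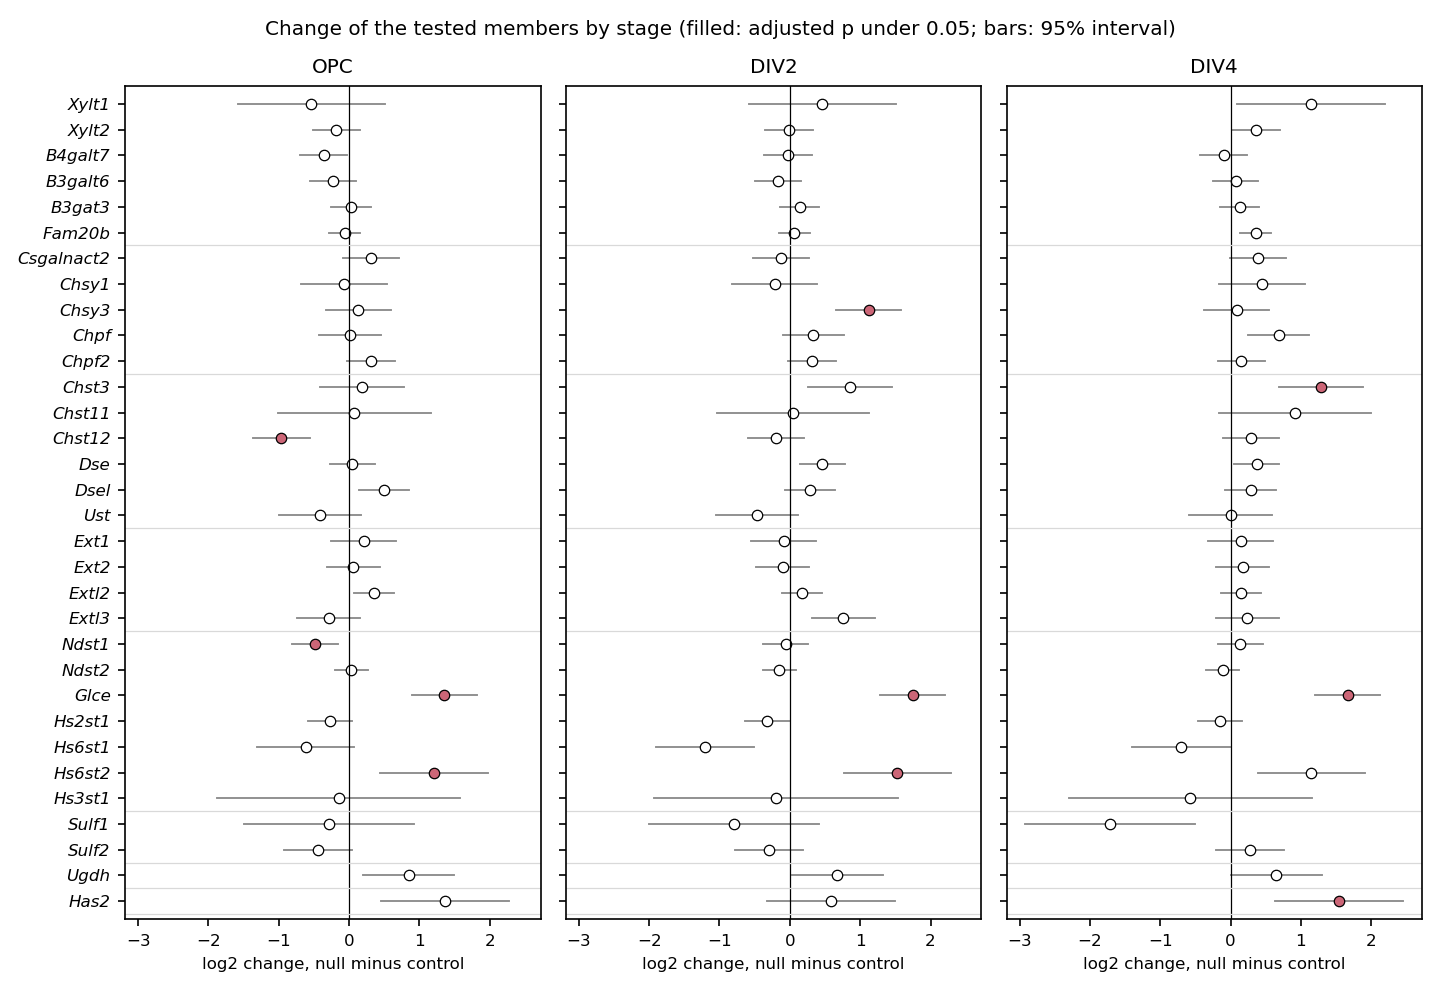
Null minus control log2 change of the 32 tested members at the 3 stages, ordered by branch, with the 95% interval and filled points for calls at an adjusted p under 0.05. Glce stands between 1.35 and 1.75 at all 3 stages, while 26 of the 32 members lie above 0 at DIV4 and 17 do so at the OPC stage. These counts are for rescaled TPM and depend on the scaling.

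The other heparan-modifying enzymes did not all share the direction of Glce. The 2 tested 6-O-sulfotransferases, which sulfate glucosamine of the heparan chain at carbon 6, lay on opposite sides of 0. Hs6st2 at the OPC stage measured 5.08, 0.76 and 4.03 in control D7, D3 and E8 and 8.29, 7.31 and 7.58 in the null clones. At DIV2 it measured 0.363, 0.45 and 0.371 in control and 4.68, 1.75 and 3.18 in null, and at DIV4 0.228, 1.08 and 0.603 against 2.6, 2.3 and 2.76. The groups did not overlap at any stage, and control D3 was the lowest OPC library. The difference was 1.21 in the OPCs (adjusted p = 0.0406). It was 1.53 after 2 days (adjusted p = 0.0287) and 1.15 after 4 (adjusted p = 0.0748), each with an SE of 0.36. Over clone means it was 1.30 (SE 0.16, adjusted p = 0.0109). Without control D3 the OPC difference was 0.66 (adjusted p = 0.0785) and the DIV4 difference 1.34 (adjusted p = 0.00545). The OPC call was also lost without control E8, null 3F, null D6 or null 7F, with adjusted p from 0.0752 to 0.191. It was lost too with a pseudocount of 0.1 (0.081), no filter (0.0731), all transcripts (0.117) and only the libraries compared (0.227). Without control E8 the DIV2 adjusted p was 0.104. Without null 3F the DIV2 adjusted p was 0.294 and the clone-mean adjusted p 0.0655, and without null 7F they were 0.224 and 0.0832.

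Hs6st1 was not called between genotypes in any comparison. It measured 4.25, 5.17 and 5.43 in the control OPCs and 2.97, 3.04 and 2.58 in the null OPCs. At DIV2 the control clones measured 12.2, 21.6 and 6.23 and the null clones 3.25, 7.04 and 4.13, so null D6 overlapped control E8. At DIV4 the values were 10.4, 12.3 and 6.68 against 4.46, 6.22 and 5.78. The OPC difference was -0.62 (adjusted p = 0.224). The later differences were -1.21 (adjusted p = 0.0593) and -0.71 (adjusted p = 0.219). The DIV2 difference was -1.62 without control E8 (adjusted p = 0.00669) and -0.80 without control D3 (adjusted p = 0.184), and on the deposited scale the OPC difference was 0.84 (adjusted p = 0.0519).

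The ratio of Hs6st2 to Hs6st1 within a library does not depend on the scaling factor. It was 1.20, 0.147 and 0.742 in the control OPCs and 2.79, 2.41 and 2.94 in the null OPCs. At DIV2 it was 0.0298, 0.0209 and 0.0595 in control and 1.44, 0.248 and 0.769 in null. At DIV4 it was 0.0219, 0.0878 and 0.0903 against 0.582, 0.369 and 0.479. In both genotypes the ratio was lower at DIV2 than at the OPC stage in every clone, and at each stage every null clone lay above every control clone. The ratios are a description and were not tested. The ratio of Glce to Ndst1, the bifunctional N-deacetylase and N-sulfotransferase that acts before Glce, separated the genotypes in the same way. It was 0.435 to 1.48 in control against 3.07 to 3.57 in null OPCs, 0.102 to 0.123 against 0.472 to 0.623 at DIV2 and 0.105 to 0.161 against 0.465 to 0.509 at DIV4. Glce and Hs6st2 alone did not overlap between genotypes at any stage in rescaled TPM, so neither ratio is separate support. Of the summed TPM of the 8 heparan-modifying enzymes, Glce held 41.7% to 44.6% in null OPCs and 12.9% to 27.7% in control OPCs.

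**Figure D3:**
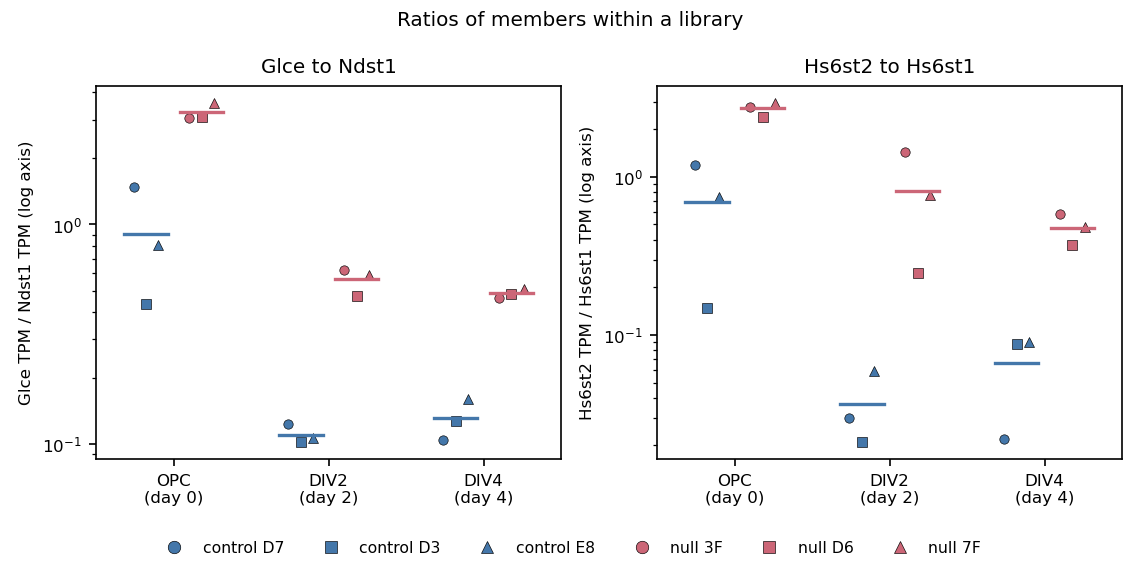
Ratio of Hs6st2 to Hs6st1 and of Glce to Ndst1 in each library, by stage and genotype, on a log axis, with 1 point for each clone and a line at the group mean. The Hs6st2 to Hs6st1 ratio lies between 0.0209 and 0.0595 in control clones at DIV2 and between 0.248 and 1.44 in null clones.

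Ndst1 had the highest mean of the heparan-modifying enzymes. At the OPC stage it measured 7.69, 11.8 and 11.2 in control and 7.61, 6.94 and 6.23 in null, with control D7 only just above null 3F. The difference of -0.49 (SE 0.15, adjusted p = 0.0485) was called at the edge of the threshold. It was 1.24 on the deposited scale, where the median of all genes was shifted by 1.49, and its adjusted p was 0.701 with protein-coding totals scaled alike. The call was also lost without control D3 (adjusted p = 0.115), control E8 (0.179), null 3F (0.0928), null D6 (0.119) or null 7F (0.272). At DIV2 and DIV4 Ndst1 ranged from 11.6 to 19.9 with overlapping groups. Ndst2, from the same family, stayed between 2.01 and 2.81 in every library, and Hs2st1, the uronosyl 2-O-sulfotransferase, between 7.98 and 15.7.

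Hs3st1, a 3-O-sulfotransferase known for making the antithrombin-binding site of heparan sulfate, had the largest standard error of the 32 tested members, 0.81 on the log2 scale. At DIV4 it measured 27.2 in control D7, 5.51 in D3 and 2.08 in E8, and 2.05, 9.54 and 4.38 in the null clones. In the OPCs it was listed at 0 in D7 and E8 and measured 3.83 in D3. The high D7 value at DIV4 comes with the high oligodendrocyte marker sum of that library. At DIV2 Hs3st1 measured 9.70, 4.10 and 0.488 in control D7, D3 and E8, where those markers summed to 3127, 1299 and 2675. In null 3F, D6 and 7F it measured 2.01, 4.20 and 2.46, with sums of 1805, 1683 and 1616. The part of these markers in the Hs3st1 values was not tested.

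The 2 extracellular endosulfatases, which remove 6-O-sulfate from finished heparan chains, differed widely in level. Sulf2 had the highest mean of all members, at 36.3. It measured 20.5, 28.2 and 42.3 in control and 22.9, 26.2 and 15.7 in null OPCs. At DIV2 it measured 42.2, 48.6 and 54.5 against 38.2, 40.1 and 39.4, and at DIV4 28.1, 41.9 and 36.4 against 45.1, 40.1 and 42.4. The groups were apart at DIV2 alone, and no Sulf2 difference between genotypes was called. Sulf1 was below 0.43 in every OPC library. At DIV4 it measured 0.0966, 4.04 and 10.5 in control D7, D3 and E8 and 0.189, 0.206 and 0.275 in null. Control D7 lay below the null clones and the other control clones far above them, and the difference of -1.71 did not pass (adjusted p = 0.0922). It was -2.64 without control D7 (adjusted p = 0.000115) and -0.94 without control E8 (adjusted p = 0.295). Sulf1 passed the filter, at a mean of 1.09, only through the control DIV4 libraries (group mean 4.88). These differences therefore rest on the group that admitted it to the test. The astrocyte marker sum at DIV4 had D7 lowest at 12.9 and E8 highest at 412 among all 6 libraries, with D3 at 203 and the null clones at 177 to 276. Its part in the Sulf1 values was not tested.

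None of the 4 tested heparan chain enzymes was called between genotypes. Ext2, a subunit of the copolymerase that extends the chain, had the highest mean of these enzymes. It measured 14.1, 16.1 and 8.82 in control and 14.8, 11.8 and 13.2 in null OPCs. The values were 12.6, 12.04 and 13.02 against 10.7, 12.01 and 12.3 at DIV2, and 10.9, 13.3 and 10.6 against 14.8, 11.1 and 13.9 at DIV4. The groups overlapped at every stage. Extl3, which starts the heparan chain on the linker, measured 5.87, 7.74 and 6.6 in control and 17.0, 8.30 and 12.3 in null at DIV2, with no overlap, but the difference of 0.76 did not pass (adjusted p = 0.0637). Without null D6 it was 1.01 (adjusted p = 0.0213).

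Among the enzymes of the chondroitin and dermatan branch the calls differed from stage to stage. Chst12, a chondroitin 4-O-sulfotransferase on chromosome 5 (140505550 to 140525724, plus strand), was called at the OPC stage. It measured 2.90, 1.98 and 2.15 in control and 0.56, 0.957 and 0.621 in null, a fall of 0.96 on the log2 scale (SE 0.19, adjusted p = 0.00534). Chst12 passed the filter, at a mean of 1.17, only through the control OPCs (group mean 2.34). Its OPC difference therefore rests on the group that admitted it to the test. The call was lost without null 7F (adjusted p = 0.0718) and in the fit on only the libraries compared (0.0801). On the deposited scale the difference was 0.11 (adjusted p = 0.715), against a median of all genes of 1.49. At DIV2 the values were 0.658, 1.62 and 1.66 against 1.06, 0.805 and 1.06, and at DIV4 0.485, 0.732 and 0.722 against 1.02, 1.14 and 0.86. Those differences of -0.20 and 0.29 did not pass.

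Chsy3, a chondroitin synthase that extends the chain, was called at DIV2. It lies on chromosome 18 (59175401 to 59535999, plus strand). In the OPCs it measured 0.657, 0.198 and 0.728 in control and 0.674, 0.714 and 0.558 in null. At DIV2 the control clones measured 1.53, 1.57 and 1.53 and the null clones 6.07, 3.55 and 4.24. At DIV4 control D7 had 3.39, D3 2.07 and E8 1.29, and the null clones 2.26, 2.59 and 2.19, so the groups overlapped again. The DIV2 difference was 1.12 (SE 0.22, adjusted p = 0.00933), with an adjusted p of 0.149 without null 3F and 0.0961 without null 7F. The OPC and DIV4 differences were 0.13 and 0.09. From OPC to DIV2 Chsy3 rose by 0.75 in control (adjusted p = 0.0127) and by 1.75 in null (adjusted p = 4.85e-05), and the test of that difference, 0.99, did not pass (adjusted p = 0.167). Without control D3 the control rise was 0.58 (adjusted p = 0.0975).

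Chst3, the 6-O-sulfotransferase of chondroitin on chromosome 10 (60181532 to 60219260, minus strand), was called at DIV4. In the OPCs it measured 3.03, 4.95 and 1.19 in control and 3.27, 3.33 and 3.12 in null. At DIV2 the values were 4.02, 4.5 and 2.98 against 8.2, 6.81 and 8.04, and at DIV4 4.94, 7.71 and 3.86 against 12.1, 15.3 and 16.1. The genotypes overlapped in the OPCs and did not overlap at DIV2 or DIV4. The difference was 0.18 in the OPCs and 0.85 after 2 days (adjusted p = 0.126). After 4 days it was 1.29 (SE 0.28, adjusted p = 0.0156). The adjusted p at DIV4 was 0.08 without null 3F, 0.0786 without null D6, 0.16 without null 7F and 0.0869 on the deposited scale. It was 0.0575 in the fit on only the libraries compared. Of its annotated transcripts, ENSMUST00000135158 held most of the DIV4 difference, at 4.35 ± 1.78 (SD, n = 3) in control and 12.8 ± 1.98 (SD, n = 3) in null. Chst3 held 34.2% to 42.8% of the summed TPM of the 10 chondroitin- and dermatan-modifying enzymes in null DIV4 libraries and 17.7% to 30.7% in control.

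At DIV4 all 11 tested chondroitin and dermatan members had a positive null minus control difference, with a median of 0.37 against -0.01 over all genes, although Chst3 was the only one called. Of all 32 tested members 26 were positive, with a median of 0.25, against 49.3% of all genes. Chst11, a chondroitin 4-O-sulfotransferase, had the highest mean of the chondroitin- and dermatan-modifying enzymes. It measured 4.79, 3.39 and 24.7 in control and 7.94, 11.6 and 5.80 in null OPCs, and 4.81, 8.15 and 5.45 against 4.69, 7.93 and 6.44 at DIV2. At DIV4 it measured 2.24, 7.48 and 6.52 in control and 9.87, 10.8 and 9.82 in null. The groups were apart at DIV4 alone, where the difference of 0.92 did not pass (adjusted p = 0.314) and was 0.48 without control D7 (adjusted p = 0.649). Chpf, the chondroitin polymerizing factor, measured 3.87, 7.62 and 7.83 against 11.4, 9.22 and 11.1, a difference of 0.68 (adjusted p = 0.0656). The Chpf difference was 0.82 without control D3 (adjusted p = 0.0467) and 0.40 without control D7 (adjusted p = 0.18). Control D7 was the lowest DIV4 library for both. Without control D7 9 of the 11 stayed positive, with a median of 0.23. On the deposited scale it was 10 of 11, with a median of 0.27 against -0.15 over all genes. In the OPCs 8 of 11 and at DIV2 7 of 11 were positive. In the heparan branch 8 of 13 were positive at DIV4, with a median of 0.14, and 5 of 13 on the deposited scale. The count of 26 positive members therefore depends on the scaling, and the median of all genes moved with it (-0.01 to -0.15).

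As a share of the summed TPM of the 40 members, the 16 chondroitin and dermatan enzymes held 19.1% ± 2.56 (SD, n = 3) in control and 24.1% ± 0.604 (SD, n = 3) in null at DIV4. The 15 heparan enzymes held 59.2% ± 5.09 (SD, n = 3) and 51.0% ± 0.379 (SD, n = 3). At that stage the lowest null chondroitin share was 23.5% and the highest control share 20.7%. The heparan share was 50.7% to 51.4% in null and 55.1% to 64.9% in control, so neither share overlapped. The OPC marker sum was also apart at that stage (316 to 413 against 173 to 213), and its part in these shares was not tested. In the OPCs the chondroitin and dermatan share was 17.8% in control and 15% in null, and the ranges overlapped. At DIV2 the heparan share was 56.8% to 60.8% in control and 51.1% to 55.8% in null, without overlap. The summed level of all members was 206 to 244 rescaled TPM in control and 266 to 278 in null at DIV4. The heparan enzymes summed to 125 to 140 in control and 136 to 142 in null at that stage. Their lower share in null therefore came without a lower summed level. The chondroitin and dermatan enzymes summed to 33.3 to 49.8 in control and 64.1 to 68.4 in null.

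**Figure D4:**
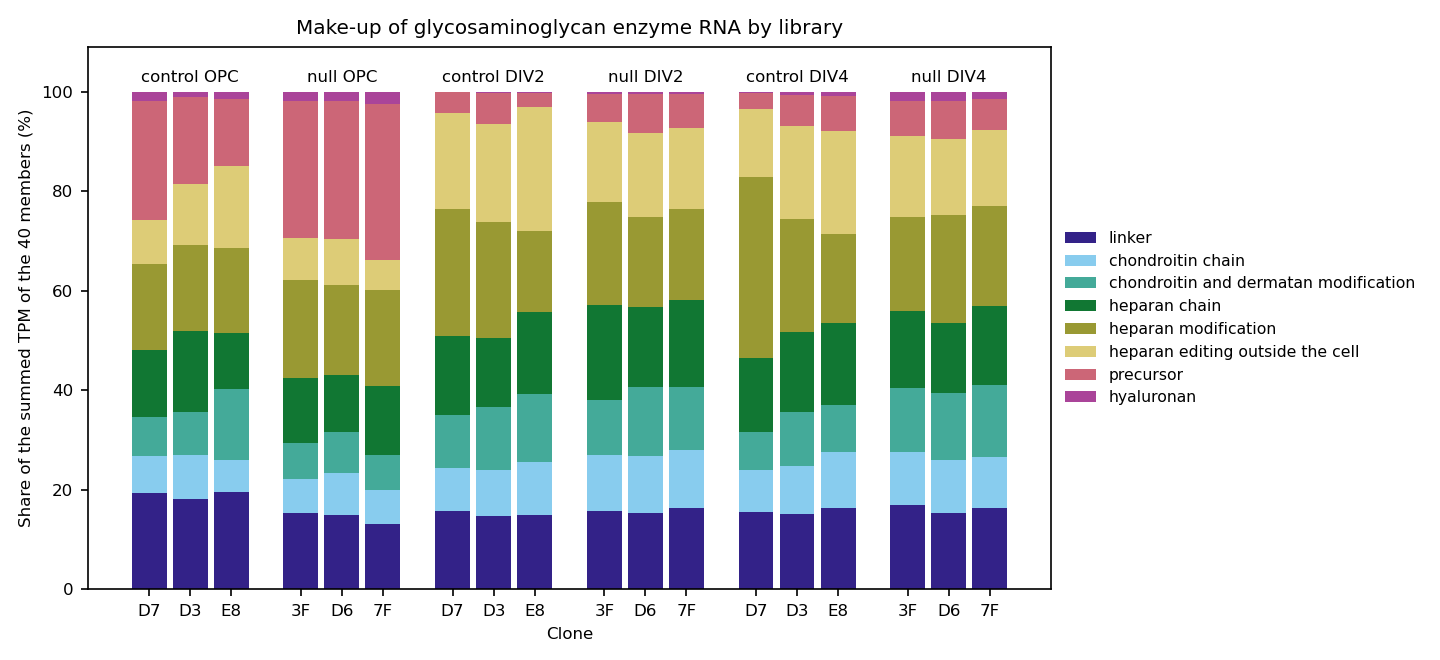
Percent of the summed TPM of the 40 members held by each branch, as 1 stacked bar for each library, ordered by the 6 groups and labelled by clone. At DIV4 the 3 heparan segments together hold 55.1% to 64.9% in control and 50.7% to 51.4% in null, and the chondroitin and dermatan segments 16.2% to 20.7% and 23.5% to 24.8%.

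Ugdh, the UDP-glucose dehydrogenase that makes UDP-glucuronic acid for all these chains, lies on chromosome 5 (65413221 to 65435949, minus strand). In the OPCs it measured 56.8, 40.2 and 34.1 in control and 74.3, 78.4 and 80.8 in null. At DIV2 it measured 8.99, 16.0 and 6.37 against 13.8, 18.4 and 16.7, and at DIV4 6.69, 14.9 and 16.0 against 19.8, 20.6 and 16.9. The genotypes overlapped at DIV2 and not at the other stages. The differences of 0.85, 0.67 and 0.65 did not pass (adjusted p = 0.0797, 0.289 and 0.225). The DIV2 difference was 0.40 without control E8, and the DIV4 difference 0.28 without control D7. The clone-mean difference of 0.72 was called (SE 0.14, adjusted p = 0.0471). That call was lost without control E8, null 3F, null D6 or null 7F, with adjusted p from 0.0932 to 0.203, and under quantile normalization (0.0561), a pseudocount of 0.1 (0.0509) or no filter (0.0841). Ugdh held 28.8% of the summed member TPM in null OPCs and 18.3% in control OPCs.

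Has2, the hyaluronan synthase that was tested, lies on chromosome 15 (56665627 to 56694539, minus strand). In the OPCs it measured 3.96 in control D7, 1.97 in D3 and 0.000531 in E8, and 4.80, 5.24 and 5.96 in null. At DIV2 all libraries were low, at 0.0556, 0.441 and 0.193 against 0.58, 1.07 and 0.885. At DIV4 control D7 had 0.0647, D3 1.28 and E8 1.49, and the null clones 4.88, 4.33 and 3.77. Every null library lay above every control library of its stage. The difference was 1.37 at the OPC stage (SE 0.43, adjusted p = 0.0501), just outside the threshold, 0.59 at DIV2 (adjusted p = 0.552) and 1.54 at DIV4 (SE 0.43, adjusted p = 0.0477), just inside it. With the clone as a block the DIV4 adjusted p was 0.0572, and without one of control D3, null 3F, null D6 and null 7F it was 0.0536 to 0.234. The DIV4 call was also lost with a pseudocount of 0.1 (0.165), with no filter (0.0852), in the fit on only the libraries compared (0.0806) and without the null D6 OPC library (0.0622). The OPC difference was 1.87 without control D7 (adjusted p = 0.00281) and 0.72 without control E8 (adjusted p = 0.177). The clone-mean difference was 1.17 (SE 0.16, adjusted p = 0.0158), with an adjusted p of 0.0799 without null 3F and 0.105 without null 7F. Both hyaluronan synthases together held 1.71% of the summed member TPM in null DIV4 libraries and 0.546% in control.

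None of the 6 linker enzymes was called between genotypes. B3gat3, the glucuronyltransferase that completes the linker, was the highest of them and ranged from 10.8 to 19.0 over all libraries. It measured 12.4, 14.1 and 11.3 in control and 10.8, 14.9 and 13.0 in null OPCs. At DIV2 it measured 15.6, 14.8 and 15.5 against 16.9, 16.0 and 17.96, and at DIV4 15.7, 13.98 and 15.9 against 16.6, 14.7 and 19.0. Xylt1, a xylosyltransferase that places the first sugar, varied more, at 12.8, 5.56 and 16.8 in control and 12.7, 7.43 and 3.57 in null OPCs. At DIV2 Xylt1 measured 1.02, 3.41 and 0.819 against 2.93, 1.82 and 2.84, and at DIV4 0.902, 6.0 and 2.72 against 8.92, 6.40 and 6.29. Xylt2, B3galt6, B4galt7 and Fam20b each stayed within 1.45 to 10.6.

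From OPC to DIV2 the members changed in both directions. In control 13 members were called, 7 higher and 6 lower, or 40.6% of those tested against 40% of all genes (21.3% higher and 18.7% lower). In null 14 were called, 9 higher and 5 lower, or 43.8% against 33.3% (17.7% higher and 15.6% lower). The calls of the 2 genotypes had 10 members in common, with like sign, 76.9% of the control calls and 71.4% of the null calls. The 6 that rose in both were Chsy3, Chpf2, Ust, Extl2, Ndst1 and Sulf2, and the 4 that fell in both were Dse, Glce, Hs6st2 and Ugdh. The null call of Dse, a dermatan sulfate epimerase, was lost without any 1 null clone (adjusted p = 0.133 to 0.205), and that of Extl2 without 3F (0.0848). The control call of Ndst1 was lost without D7 (0.124), E8 (0.0504) or null 7F (0.0534), under quantile normalization (0.0735) and in the fit on only the libraries compared (0.12).

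The largest rise was in Ust, which places sulfate on carbon 2 of uronic acid in chondroitin and dermatan chains. It measured 1.86, 4.70 and 1.88 in control OPCs and 10.8, 14.7 and 17.5 at DIV2. In null it went from 1.36, 1.64 and 2.18 to 7.31, 13.3 and 10.02. The groups did not overlap in either genotype. The change was 2.06 in control (SE 0.28, adjusted p = 6.81e-05) and 2.02 in null (SE 0.28, adjusted p = 0.000101). At DIV4 Ust measured 5.39, 6.83 and 6.61 in control and 7.26, 4.45 and 7.48 in null. The differences from DIV2, -1.06 and -0.59, did not pass. The first was called without the control D3 OPC library (adjusted p = 0.0361), and the second was -0.19 without null D6.

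The largest falls were in Xylt1, Ugdh, Glce and Hs6st2. Ugdh changed by -2.02 in control (adjusted p = 0.000162) and -2.20 in null (adjusted p = 0.000108). Glce changed by -1.83 (SE 0.22, adjusted p = 2.87e-05) and -1.43 (SE 0.22, adjusted p = 0.000216), so the null clones at DIV2, at 5.46 to 9.77, stood near the control OPCs, at 5.13 to 11.4. Hs6st2 changed by -1.44 (adjusted p = 0.00555) and -1.12 (adjusted p = 0.026), with an adjusted p of 0.0579 in control without D7, 0.0736 in control without E8, and 0.0735 to 0.203 in null without one of its clones. Xylt1 changed by -2.21 in control (adjusted p = 0.00268, and 0.0653 without E8) and by -1.21 in null (adjusted p = 0.071, and 0.0157 without control D3). On the deposited scale, where the median of all genes moved by 1.99 in control, Ugdh and Glce differed by 0.54 and 0.23 there with no call. Xylt1 and Hs6st2 differed by -0.056 and -0.057 in control on that scale, also with no call (adjusted p = 0.924 and 0.879). The falls in control are therefore relative to other protein-coding genes. In null, where that median moved by 0.36, the falls of Ugdh and Glce were called under each alternative run. The null call of Hs6st2 was lost on the deposited scale (adjusted p = 0.121) and with a pseudocount of 0.1 (0.0785). It was also lost with no filter (0.0574), all transcripts (0.0847) and without the null D6 OPC library (0.0551). The cell-cycle marker sums were 26.8 to 413 in control OPCs and 4.75 to 10.7 in control at DIV2. They were 363 to 399 and 12.6 to 38.5 in null. Their part in these changes was not tested.

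**Figure D5:**
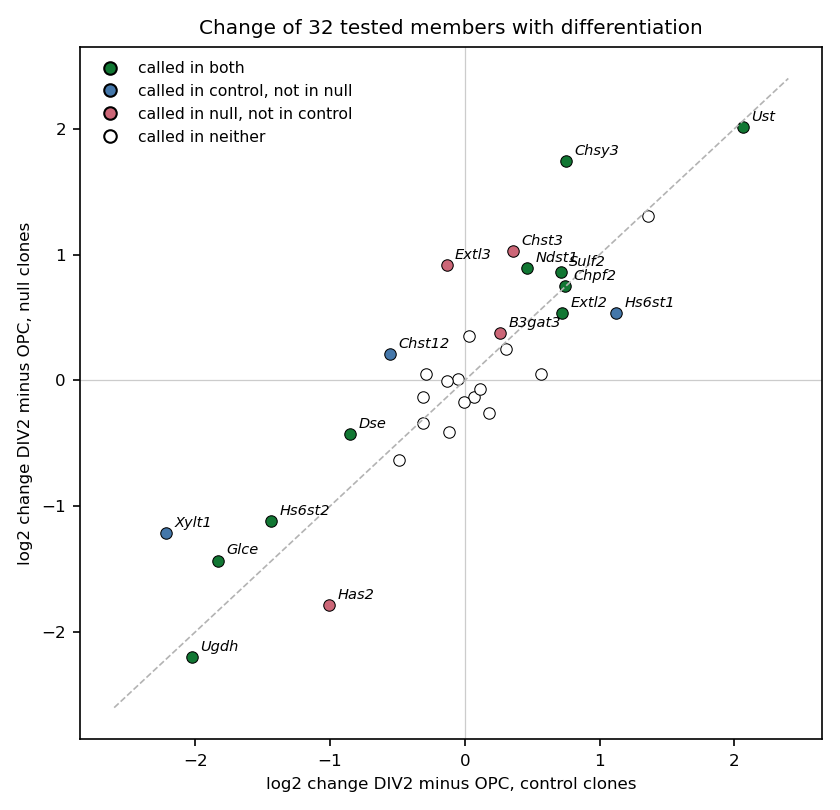
Log2 change from OPC to DIV2 of the 32 tested members in null (vertical axis) against control (horizontal axis), coloured by the calls, with a dashed line of equal change. Ust lies at 2.06 and 2.02 and Ugdh at -2.02 and -2.20 near that line, and no member's difference between the genotypes was called.

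Hs6st1, Xylt1 and Chst12 passed the threshold in control and not in null, and B3gat3, Chst3, Extl3 and Has2 in null and not in control. The difference between genotypes was not called for any of these 7. Chst12 differed by -0.56 in control (adjusted p = 0.0282), by -0.22 without D7 (adjusted p = 0.342) and by 0.90 on the deposited scale (adjusted p = 0.00606), where the median of all genes moved by 1.99. Chst12 passed the filter only through the control OPCs, which this change starts from. In null, the call of Chst3 was lost without any 1 null clone (adjusted p = 0.0606 to 0.102). Those of B3gat3 (0.293 and 0.192) and Extl3 (0.0576 and 0.0597) were lost without 3F or 7F, and B3gat3 also in 3 further settings. Hs6st1 rose by 1.12 in control (SE 0.33, adjusted p = 0.0132), but the adjusted p was 0.0935 without control D7 and 0.0779 without D3. Chpf2, a chondroitin polymerizing factor, rose by 0.75 in each genotype (adjusted p = 0.00189 and 0.00212), with no overlap between OPC and DIV2. It measured 4.87, 5.75 and 3.68 in control OPCs, 7.51, 8.92 and 9.37 at DIV2 and 7.11, 6.52 and 7.56 at DIV4. In null it measured 4.93, 7.26 and 6.21, then 9.35, 12.7 and 10.8, then 8.20, 7.47 and 8.24. Its exons overlap those of Smarcd3 on the opposite strand over 44.1% of their bases and the strand setting of the counting is not given in the sources used here, so its level is uncertain. Sulf2 rose by 0.71 in control (adjusted p = 0.0215) and 0.86 in null (adjusted p = 0.00885), with an adjusted p of 0.0724 without control D7, 0.0776 without control D3, 0.0613 without null 3F and 0.134 without null 7F. Has2 fell by 1.78 in null (adjusted p = 0.00493), with adjusted p of 0.0626 without 3F and 0.0612 without 7F. Its difference in control was -1.01 (adjusted p = 0.073), -1.64 without E8 (adjusted p = 0.00434) and -0.39 without D7 (adjusted p = 0.434).

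No member's change from OPC to DIV2 was called as different between genotypes, against 0.279% of all genes, with limma and BH adjustment; 3 members and 13.8% of all genes had an unadjusted p under 0.05. From DIV2 to DIV4 no member was called in control, against 0.25% of all genes, or in null, against 2.93%. There 2 members in control and 10 in null had an unadjusted p under 0.05, as did 10.9% and 18.2% of all genes. Has2 in null had a difference of 1.53 (adjusted p = 0.0652), which was called when control D7 (0.00868) or control E8 (0.0163) was left out. No member was called in the genotype difference of that step either, where 0% of all genes were called and 1 member and 5.18% of all genes had an unadjusted p under 0.05.

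Of 28 other genes of the pathway, which supply sulfate and sugar nucleotides or belong to the same enzyme families, 27 were matched and 16 tested. In the OPCs 4 of these 16 were called, against 11.9% of all genes, all higher in null: Gfpt2 by 1.11 (adjusted p = 0.0284), Ugp2 by 0.66 (adjusted p = 0.0432), Impad1 by 0.65 (adjusted p = 0.00222) and Pgm3 by 0.63 (adjusted p = 0.016). Gfpt2 catalyses the first step of hexosamine synthesis, Pgm3 a later step, and Ugp2 makes UDP-glucose, the substrate of Ugdh. None of the 4 was called at DIV2, at DIV4 or over clone means. At DIV4 Gfpt2, Ugp2, Impad1 and Pgm3 differed by 0.89, -0.63, -0.11 and 0.07. No alternative run is reported for these genes, and OPC differences depend strongly on the scaling factor. Slc26a2, a sulfate transporter at the cell membrane, was the 1 called gene at DIV2 (0.89, adjusted p = 0.0442) and at DIV4 (0.98, adjusted p = 0.0223). At DIV4 it measured 2.06, 3.55 and 1.97 in control and 6.96, 4.93 and 5.66 in null. Hs3st3b1, a heparan 3-O-sulfotransferase that is not a member, was lower in null over clone means by -0.77 (adjusted p = 0.0385). From OPC to DIV2, 7 of the 16 rose and 1 fell in control, where 40% of all genes were called, and 4 rose and 1 fell in null, where 33.3% were.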

How the data were processed

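Total RNA from 18 libraries was sequenced with a stranded kit that includes ribosomal RNA removal, per the labels' protocols. The submitters' processing notes name STAR, Picard and the build mm10. The quantifier and the annotation are not given in the sources used here. The authors deposited TPM for 93666 transcripts, and each deposited column sums to 1000000, so depth is unknown and precision rests on 3 clones a group. The table's transcript length was not used in any test.

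TPM of protein-coding transcripts was summed by gene symbol, after 25 symbols turned into dates were restored through their transcript identifiers. Each library was divided by a median-of-ratios factor over 12320 genes above 0 in all libraries. This scaling was preferred to the deposited values because noncoding features fill the control OPC libraries. It assumes that most protein-coding genes do not change. Genes with a mean of at least 1 rescaled TPM (10409) were fitted on log2(rescaled TPM + 1) by limma (version 3.58.1, R 4.3.3), with one mean per group and a trended eBayes. That scale understates the change of low genes. P-values were adjusted by Benjamini-Hochberg over all genes tested within a comparison, with a threshold of 0.05. Clone means over the 3 stages were compared in a second fit. The fit was tested on simulated data.

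The members, branches, gene lists, scaling and tests were chosen with earlier results of these data known. Values in every library are given for the members called between genotypes, for the highest member of each branch and for the 4 largest called rises and falls from OPC to DIV2 in control (from DIV2 to DIV4 none was called). Other pathway genes are named when called between genotypes. Sulf1, Hs3st1, Chpf, Extl1, Extl3 and Has3 were added after their values were seen. The labels give each clone's name at all 3 stages, which pairs libraries of 1 line. Deviations from the group means correlated at 0.285 on average within a clone (0.026 to 0.653) and at -0.0432 between clones, and the clone was tried as a replicate block. Other alternatives were 3 scalings, a pseudocount of 0.1, no filter, all transcripts, a fit on only the libraries compared and each clone left out. Leaving out all OPC libraries, null D6 OPC or control D3 OPC was chosen after seeing the data. Positions are from GENCODE M21 (GRCm38). Members shared at most 6.78% of their 31-mers (31-base words) with other genes. Sums and plots used pandas 2.3.3, numpy 2.4.6 and matplotlib 3.10.9 under Python 3.11.15.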

Additional observations from a re-analysis of the deposited data

How the results depend on the processing

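Of the members' genotype calls recomputed under the alternatives, only those of Glce at DIV2, at DIV4 and over clone means held under each one. Of the calls from OPC to DIV2, those of Ust and Chpf2 held under each one in both genotypes. So did that of Extl2 in control and those of Chsy3, Glce, Ndst1 and Ugdh in null. On the deposited scale the number of members called was 27 at the OPC stage, 16 over clone means, 25 from OPC to DIV2 in control and 23 for the genotype difference of that step, where the median of all genes moved by 1.49, 0.40, 1.99 and -1.66. From DIV2 to DIV4 in null it was 1 on that scale, with protein-coding totals scaled alike, without a filter and with the clone as a replicate block, 8 in the fit on only the libraries compared and 2 without all OPC libraries. At the OPC stage it was 8 with protein-coding totals scaled alike, 2 without a filter, 0 in the fit on only the libraries compared and 2 without the null D6 OPC library. At DIV4 it was 1 in the fit on only the libraries compared, 5 without all OPC libraries and 5 without the control D3 OPC library, which also gave 1 from DIV2 to DIV4 in control and 1 for the genotype difference from OPC to DIV2. In the fit on only the libraries compared it was 8 from OPC to DIV2 in control.

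With each clone left out, the number called was 1 to 8 at the OPC stage, 1 to 4 at DIV2, 1 to 5 at DIV4 and 1 to 6 over clone means. It was 9 to 13 and 6 to 15 from OPC to DIV2 in control and null, 0 to 1 and 0 to 5 from DIV2 to DIV4, and 0 for both genotype differences of the steps. With the clone as a replicate block, Has2 at DIV4 lost its call (adjusted p = 0.0572), and no other genotype call of a named member changed.

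Some differences changed sign. On the deposited scale Chst12, Hs6st1 and Ndst1 at the OPC stage were 0.11, 0.84 and 1.24, Ndst1 was -0.010 at DIV4 and 0.33 over clone means, and Chst12, Dse, Glce and Ugdh differed by 0.90, 0.39, 0.23 and 0.54 from OPC to DIV2 in control. Ndst1 over clone means was 0.0043 with protein-coding totals scaled alike. Chsy3 at the OPC stage was -0.039 without control D3 and also without its OPC library alone, and -0.14 at DIV4 without control E8. With a clone left out, Chst3 at the OPC stage ranged from -0.21 (without control E8) to 0.51, and Ndst1 at DIV2 from -0.15 to 0.052 (without null D6). The cause of these changes was not tested beyond the shift of all genes given above. Depth is unknown, so no counting error could be set beside low members such as Chst12, Chsy3 and Has2.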
